A study of Mus musculus with 18 samples.

Results

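Gata2, Gata3, Pax5, Ebf1, Tcf7, Lef1, Bcl11b, Tbx21 and Eomes encode transcription factors that direct blood lineages other than the macrophage. These 9 genes were taken as listed, out of the 21938 protein-coding genes of the GENCODE vM21 annotation of the mouse genome (mm10, the same assembly as GRCm38), and the histone marks over them were read in bone marrow-derived macrophages (BMDM). Each gene was given a window that took in the gene body, 5 kb before it and 1 kb after it, and every peak touching the window was recorded. The study profiled trimethylation (H3K27me3) and acetylation (H3K27ac) of histone 3 lysine 27 by chromatin immunoprecipitation (ChIP) followed by sequencing, in 18 libraries. BMDM were grown from the marrow of male mice in medium with L929 cell supernatant, which carries macrophage colony-stimulating factor, and were not stimulated. The WT mice were labelled C57BL6, the mdx mice carried the 4Cv mutation of the dystrophin gene (strain label Dmdmdx-4Cv), and the mdxTLR4-/- mice carried the mdx mutation and lacked Toll-like receptor 4 in all cells (label mTLR4, strain Bl6/Bl10). H3K27me3 was profiled with 2 ChIP and 2 input libraries for each genotype.

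For H3K27ac there were 2 ChIP libraries from WT, 2 from mdx and 1 from mdxTLR4-/- BMDM, with 1 input library. The labelled ages of the H3K27me3 ChIP mice were 12 to 13 weeks for WT, 14 to 15 weeks for mdx and 16 to 17 weeks for mdxTLR4-/-, and those of the H3K27ac ChIP mice were 19 to 20, 21 to 22 and 23 weeks. The H3K27me3 inputs were labelled 6 to 11 weeks and the H3K27ac input 18 weeks, so that across the 18 libraries, in the order of the series, each label was 1 week above the one before. Whether these labels are the ages of the mice is not known here. As labelled, age and strain followed genotype, so the 3 cannot be told apart. The authors merged the replicates, where there were any, before calling peaks, which left 1 peak list for each mark and genotype, 6 in all. A difference between genotypes is therefore a difference between 2 lists, without a measure of spread among mice and without a p-value, and intervals below cover counting error only. Each peak carries a count of ChIP reads, unscaled. The H3K27me3 list of WT BMDM held 28143 peaks, that of mdx 41780 and that of mdxTLR4-/- 36488, and the median peak of these lists had 123, 89 and 75 reads. The H3K27ac lists were far thinner, with 15665, 12076 and 12493 peaks, medians of 10, 10 and 8 reads, and no peak under 5 reads.

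H3K27me3 is laid down by the Polycomb repressive complex and is found over genes that a cell type keeps silent, often the developmental regulators of other lineages. H3K27ac marks active promoters and enhancers, and the same lysine cannot carry both marks at once. In blood, Gata2 acts in stem and progenitor cells, mast cells and early megakaryocytes, Pax5 and Ebf1 establish the B cell, Gata3, Tcf7, Lef1 and Bcl11b act in the T cell, and Tbx21 (T-bet) and Eomes act in Th1 cells, cytotoxic T cells and natural killer (NK) cells. In a bulk culture, a mark in some of the cells and a weaker mark in all of them cannot be told apart.

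The identity of the cells was read from 13 macrophage markers. All 13 had an H3K27ac peak in the window in each of the 3 lists, whereas 26.7% of protein-coding genes did. Of the 13 markers, 12 had no H3K27me3 peak in WT BMDM, among them Adgre1 (F4/80) and Cd14, 11 had none in mdx and 12 had none in mdxTLR4-/-. Irf8, a factor of monocyte and macrophage development, had an H3K27me3 peak over 5.32% of its window in mdx and none in WT and mdxTLR4-/-.

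All 9 transcription factor genes showed the opposite arrangement. The annotated start of each gene lay under an H3K27me3 peak in WT, mdx and mdxTLR4-/- BMDM alike. Among protein-coding genes, this was so for 23.5% in WT, 23.8% in mdx and 22.7% in mdxTLR4-/-, and for 20.1% in all 3 lists. No H3K27ac peak touched any of the 9 windows in any list. A peak was present in 39.9% of protein-coding windows in WT, 34.5% in mdx and 36.5% in mdxTLR4-/-, and 51.9% had none in any list. Among the 4417 protein-coding genes whose start lay under H3K27me3 in all 3 lists, 80.2% had no H3K27ac peak, so that the absence of H3K27ac at the 9 genes was also the usual state of genes marked in this way. With a minimum of 5 reads for an H3K27ac peak, acetylation below that level was not detectable.

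**Figure D1:**
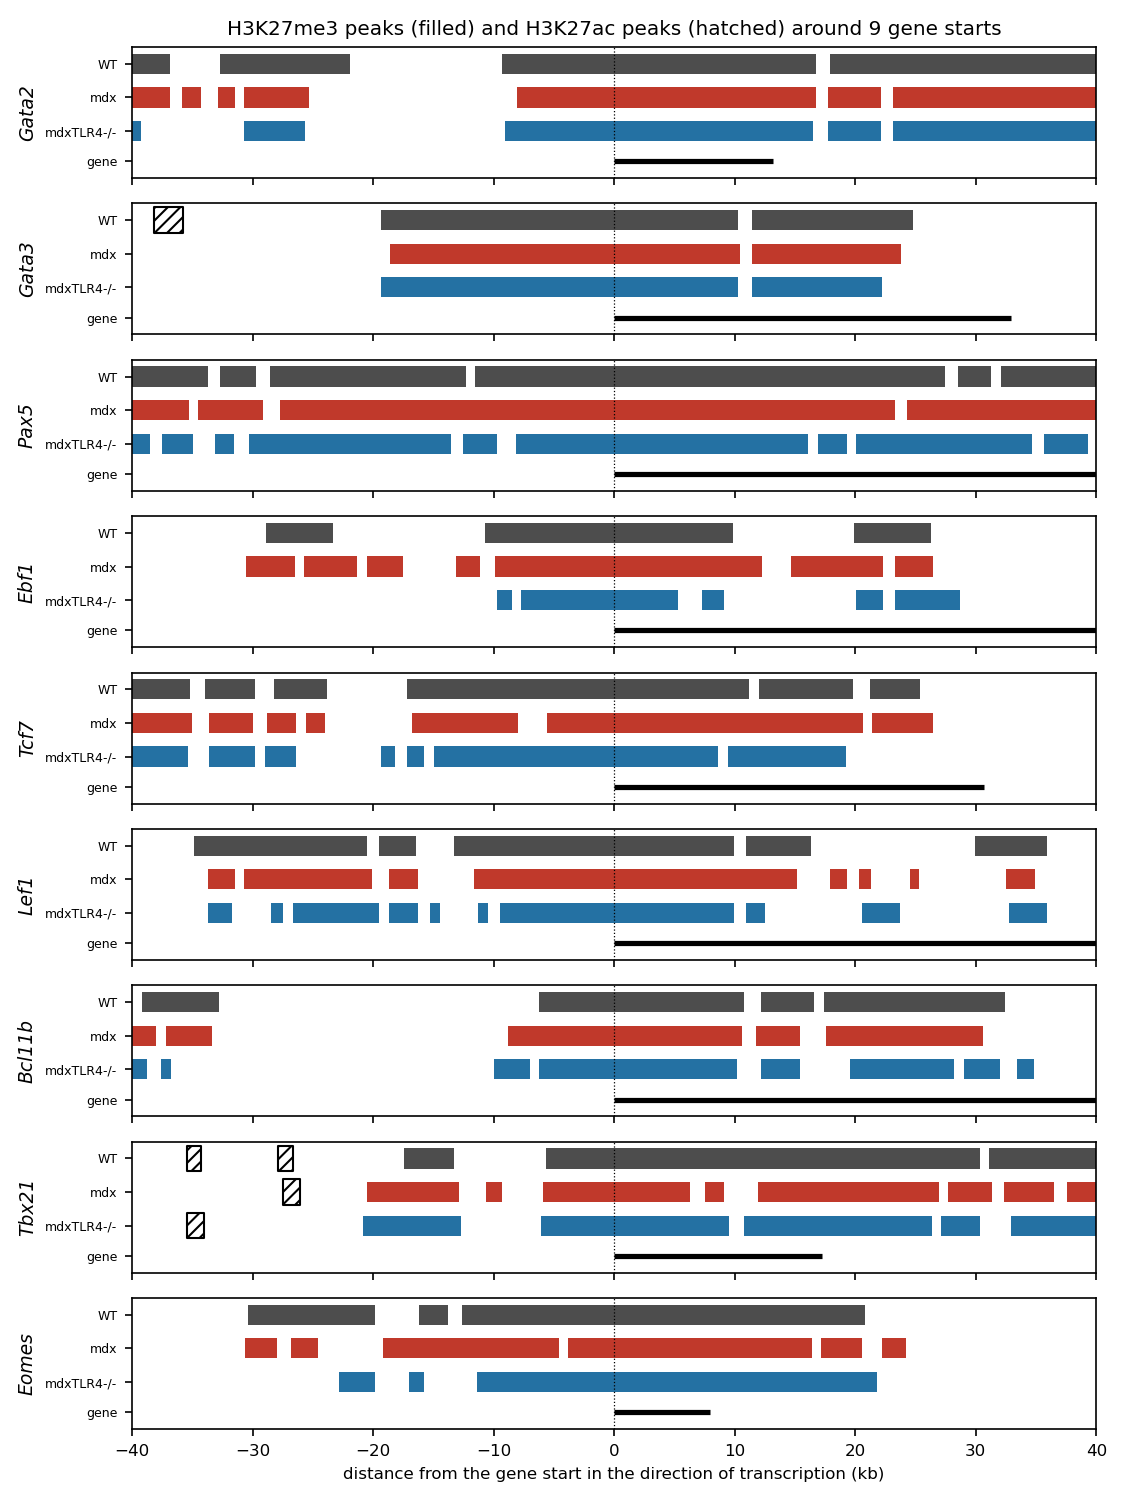
H3K27me3 peaks (filled bars) and H3K27ac peaks (hatched boxes) from -40 to 40 kb around the start of each of the 9 genes, one row per genotype, with the gene body as a black line (cut at 40 kb). Every start, at 0 kb, lies under a filled bar in all 3 lists, Gata3 shows a break with 1000 bp common to all 3, and the nearest hatched boxes lie upstream of Gata3 and Tbx21, outside their windows.

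The sequences directly upstream of the starts were taken from the RefSeq promoter table (GRCm38.p6), which held 15 annotated starts for the 9 genes, at least 1 for each. For 14 of the 15 starts, all 250 upstream bases lay under H3K27me3 peaks in the 3 lists. For the remaining start, that of Gata3, none of the 250 bases did in any list. The share of all RefSeq promoters covered in this way was not counted. Starts of the same gene are not independent, and some upstream sequences of Lef1 overlap. Below are 3 of the covered promoters, which span a wide range of CpG number, and that of Gata3. They are written 5′ to 3′ on the strand of the gene with each CpG in capitals. The positions are chr6:88193641-88193890 (plus strand) for Gata2, chr2:9878601-9878850 (minus strand) for Gata3, chr11:97115332-97115581 (minus strand) for Tbx21 and chr9:118477939-118478188 (plus strand) for Eomes.
Gata2: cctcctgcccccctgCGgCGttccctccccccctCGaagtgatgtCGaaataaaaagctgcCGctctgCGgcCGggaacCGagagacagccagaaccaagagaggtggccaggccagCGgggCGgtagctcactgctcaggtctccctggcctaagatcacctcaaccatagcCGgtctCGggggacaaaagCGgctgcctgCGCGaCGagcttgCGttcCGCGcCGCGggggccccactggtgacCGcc
Gata3: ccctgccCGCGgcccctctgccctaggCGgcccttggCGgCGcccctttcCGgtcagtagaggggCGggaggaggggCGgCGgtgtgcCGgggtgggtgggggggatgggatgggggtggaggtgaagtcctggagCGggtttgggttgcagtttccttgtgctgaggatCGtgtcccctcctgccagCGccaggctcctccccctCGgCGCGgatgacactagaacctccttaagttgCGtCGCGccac
Tbx21: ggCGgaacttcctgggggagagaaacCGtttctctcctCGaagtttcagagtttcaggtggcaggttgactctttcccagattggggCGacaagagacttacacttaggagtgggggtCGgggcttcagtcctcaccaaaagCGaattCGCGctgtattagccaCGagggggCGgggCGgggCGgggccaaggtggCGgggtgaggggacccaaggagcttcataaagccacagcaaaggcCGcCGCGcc
Eomes: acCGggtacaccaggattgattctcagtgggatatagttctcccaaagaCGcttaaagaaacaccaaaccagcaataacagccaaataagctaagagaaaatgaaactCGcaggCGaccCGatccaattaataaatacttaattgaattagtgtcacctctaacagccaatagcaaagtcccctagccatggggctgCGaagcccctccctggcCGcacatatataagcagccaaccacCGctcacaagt
These upstream sequences held 22 CpG in Gata2, 19 in Gata3, 16 in Tbx21 and 8 in Eomes, against a median of 10 (quartiles 3 and 19) over 20145 RefSeq promoters of protein-coding genes. Over the 15 starts the count ran from 5, at the fourth annotated start of Lef1, to 37, at the first of Tcf7, and 10 of the 15 were above the median of all promoters. The uncovered Gata3 sequence was thus not poor in CpG. The motif GGGCGG, read on both strands, was present upstream of 10 of the 15 starts and of 44.1% of all promoters. TATAAA, read on both strands, was present upstream of 2 of the 15, the second start of Tcf7 and the fourth of Lef1, and of 11.2% of all promoters. These are matches of letters only, and an annotated start need not be the one used in a given cell.

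Gata2 and Gata3 are zinc finger factors that bind GATA motifs. Gata2 (ENSMUSG00000015053.14, chr6:88193891-88207032, plus strand) lay whole within 1 H3K27me3 peak, from its upstream flank past its last exon. This peak was 26 kb long with 1862 reads in WT, 24.8 kb with 2151 reads in mdx and 25.6 kb with 1804 reads in mdxTLR4-/-. Its density, in reads per kb, was 71.6 for WT, 86.7 for mdx and 70.5 for mdxTLR4-/-, which placed the peak at percentile 99.7, 99.8 and 99.4 of its list. The coverage of the window was 100% in the 3 genotypes, and the part of the peak common to the lists was 94.6% of their union. Gata2 thus carried a dense domain with nearly fixed borders.

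Gata3 (ENSMUSG00000015619.10, chr2:9857078-9890034, minus strand), which is required for T cell development and for Th2 cells, was covered by a pair of peaks in each list. The peak over the annotated gene start held 1480 reads over 29.6 kb in WT, 1908 over 29 kb in mdx and 1388 over 29.6 kb in mdxTLR4-/-. It had the most closely matched borders of the 9, with 96.6% of the union common to the lists. The second peak began 11.4 kb downstream of the start in the 3 lists and held 527, 605 and 386 reads. Between them, chr2:9878601-9879600 was free of H3K27me3 in WT, mdx and mdxTLR4-/- BMDM. The break was longer in WT and mdxTLR4-/-, where the start peak reached 10.2 kb past the start, than in mdx, where it reached 10.4 kb. The part common to the lists was 1000 bp long, 54.7% G or C and only 6.70% repeat sequence, and it ended at the base before the RefSeq start of Gata3. It held 56 CpG per kb, whereas the 8 other short gaps shared by the lists, found within 30 kb of the starts of Ebf1, Tcf7, Lef1 and Bcl11b, held from 5 to 19.4 CpG per kb. No H3K27ac peak lay in the break. The window coverage was 73.5% in WT, 71.4% in mdx and 66.8% in mdxTLR4-/-, with the uncovered remainder mainly at the 3′ end of the gene.

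Pax5, the paired box factor that commits cells to the B lineage, spans chr4:44524757-44710487 on the minus strand (ENSMUSG00000014030.15). Its start lay under a peak of 39 kb with 2281 reads in WT, of 51 kb with 3295 reads in mdx and of 24.2 kb with 1744 reads in mdxTLR4-/-. Only 43.8% of the union of these peaks was common to the lists. Over the rest of the gene H3K27me3 was split into smaller domains. With the start peak included, the window held 10 peaks for WT, 16 for mdx and 18 for mdxTLR4-/-. The window coverage was 67.8%, 77.5% and 62.9%. Pax5 was the one long gene of the group with H3K27me3 along most of its length.

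Ebf1, the early B cell factor that acts upstream of Pax5 (ENSMUSG00000057098.14, chr11:44617317-45008091, plus strand), had the longest body, at 390.8 kb, and the lowest coverage. WT peaks covered 7.68% of its window, mdx peaks 9.90% and mdxTLR4-/- peaks 7.03%. Within 10 kb on either side of the start the coverage was 99.2%, 100% and 80.6%, and over the rest of the window it was 4.09%, 6.36% and 4.14%. The peak over the start held 1077 reads over 20.6 kb in WT, 1427 over 22.2 kb in mdx and 887 over 13 kb in mdxTLR4-/-. H3K27me3 on Ebf1 was therefore a domain at the start, with a few thin peaks in the introns. One of these lay about 213 kb into the gene in each list, with 110 reads for WT, 139 for mdx and 64 for mdxTLR4-/-.

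Tcf7 (TCF-1) and Lef1 are related high mobility group box factors that act with β-catenin and Notch signals in early T cells. Tcf7 (ENSMUSG00000000782.15, chr11:52252371-52283014, minus strand) had 77.0% of its window under H3K27me3 in WT, 83.5% in mdx and 63.9% in mdxTLR4-/-. The peak over its start held 1138 reads over 28.4 kb, 1414 over 26.2 kb and 1048 over 23.6 kb. The borders of this peak shifted between the lists, and 37.6% of the union was common to them. Where it stopped short, a separate peak lay beyond a short break, so the marked stretch as a whole shifted less. Relative to the start, that peak ran from 12.0 to 19.8 kb in WT, from -16.8 to -7.99 kb in mdx and from 9.41 to 19.2 kb in mdxTLR4-/-.

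Lef1 (ENSMUSG00000027985.14, chr3:131110471-131224356, plus strand) had 47.8% of its window under WT peaks, 51.5% under mdx peaks and 36.8% under mdxTLR4-/- peaks. It was thereby the only one of the 9 genes that crossed the 50% line between genotypes, as 4.01% of protein-coding genes did, with the WT and mdx values close to the line on either side. The count of covered genes in mdx fell from 7 to 6, that of the other lists, with the gene body alone, with peaks of at least 2 kb or with equal numbers of peaks. With peaks of at least 1.5 times the 1st percentile of density it was 6 as well, against 5 in WT and 6 in mdxTLR4-/-. The peak over its start held 1067 reads over 23.2 kb in WT, 1448 over 26.8 kb in mdx and 881 over 19.4 kb in mdxTLR4-/-. Coverage within 10 kb of the start was nearly complete in the 3 lists, at 99.5%, 100% and 99.5%, and the difference between genotypes lay further into the gene, where it was 40.4%, 44.5% and 27.8%.

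Bcl11b, a zinc finger factor needed for T cell commitment (ENSMUSG00000048251.15, chr12:107910403-108003602, minus strand), had 35.5% of its window under WT peaks, 34.5% under mdx peaks and 31.7% under mdxTLR4-/- peaks. The peak over its start held 756 reads over 17 kb, 1072 over 19.4 kb and 809 over 16.4 kb, with 83.7% of the union in common. A further dense domain lay inside the gene, from 17.4 to 32.4 kb past the start with 43.1 reads per kb in WT, from 17.6 to 30.6 kb with 59.2 in mdx and from 19.6 to 28.2 kb with 58.7 in mdxTLR4-/-. The peak over the start had 44.5 reads per kb in WT, 55.3 in mdx and 49.3 in mdxTLR4-/-. The inner domain was thus about as dense as the start peak in WT and mdx, and denser in mdxTLR4-/-. Most of the gene past the inner domain was free of peaks.

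Tbx21 and Eomes are T-box factors. Tbx21 (ENSMUSG00000001444.2, chr11:97098071-97115331, minus strand) lay under a single peak of 36 kb with 1591 reads in WT. In mdx the window was touched by 3 peaks of 673, 56 and 857 reads, and in mdxTLR4-/- by a pair of 660 and 777 reads. Past the gene, the end of the stretch that the WT peak spans held 1 more peak in each of these lists, of 98 and 102 reads. The window coverage was 100%, 82.8% and 94.8%, and 33.0% of the union of the start peaks was common to the lists. All 6 exons were touched by a peak in each genotype.

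Eomes (ENSMUSG00000032446.14, chr9:118478212-118486132, plus strand), the shortest of the 9 genes at 7.92 kb, lay under 1 peak of 33.4 kb with 1731 reads in WT and of 33.2 kb with 1675 reads in mdxTLR4-/-. In mdx the domain was broken on both sides of the gene, into a peak of 585 reads upstream, one of 1513 reads over the gene and one of 153 reads downstream, outside the window. The window coverage was 100% in WT and mdxTLR4-/- and 94.3% in mdx, and the body was covered in full in the 3 lists.

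Over the 9 genes, WT BMDM had a median window coverage of 73.5% (interval 35.5% to 100%), mdx BMDM of 77.5% (34.5% to 94.3%) and mdxTLR4-/- BMDM of 63.9% (31.7% to 100%), where the interval runs from the second lowest to the second highest gene, a level of 96.1% for 9 values. The interval describes the spread among the genes and is no error of a genotype. The median of mdx fell to 69.9% with equal numbers of peaks or with peaks of at least 1.5 times the 1st percentile of density. It was then below the median of WT, which stayed at 73.5% under both, so the order of mdx and WT was not stable. Gene by gene, coverage from WT to mdx was higher at 4, lower at 4 and the same at 1, and it was lower at 44.9% of the protein-coding genes with H3K27me3 in either list. From WT to mdxTLR4-/- it was higher at 0, lower at 7 and the same at 2, with a median difference of -4.90 percentage points, and lower at 59.2% of such protein-coding genes. From mdx to mdxTLR4-/- it was higher at 2, lower at 6 and the same at 1, with a median difference of -2.87 percentage points, and lower at 59.9% of such protein-coding genes. The mdxTLR4-/- list also covered less sequence as a whole, 224 Mb against 252 Mb in WT and 261 Mb in mdx. At least 50% of the window was covered in 6 genes in WT, 7 in mdx and 6 in mdxTLR4-/-, against 16.6%, 16.3% and 14.9% of protein-coding genes. The shortest genes, Gata2, Tbx21 and Eomes, were covered in full in WT, and the longest, Ebf1, was the least covered in each list. In mdx Tcf7, at 83.5%, was level with Tbx21, at 82.8%, and Pax5, the second longest, had more coverage than Lef1 and Bcl11b in the 3 lists. Coverage within 10 kb of the start showed no such spread, with a median of 100% in each list.

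**Figure D2:**
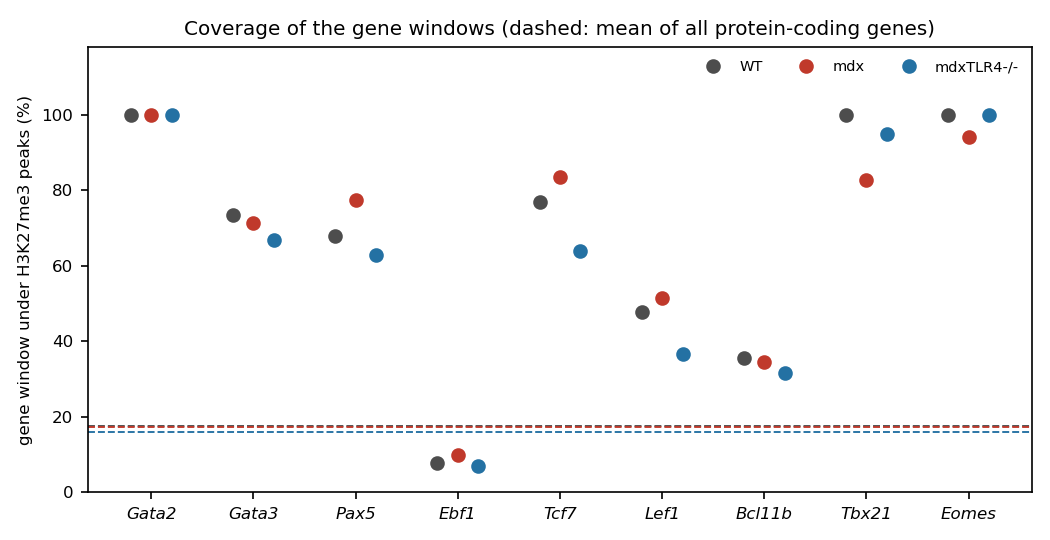
Percent of each gene window under H3K27me3 peaks (vertical axis) for the 9 genes (horizontal axis) in WT, mdx and mdxTLR4-/- BMDM, one point per peak list, with the mean of all protein-coding genes as dashed lines at 17.6%, 17.4% and 16.0%. Of the 9 genes, 8 lie above the lines in every list and Ebf1, at 7.03% to 9.90%, lies below them.

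The peaks over the 9 starts were among the longer and denser ones of their lists. Their median density was 50 reads per kb in WT, 64.3 in mdx and 49.3 in mdxTLR4-/-, where the median peak of each list had 24.5, 28.3 and 23.7. By density they ranked from percentile 91.1 to 99.7 of all peaks in WT, from 95.6 to 99.8 in mdx and from 92.7 to 99.5 in mdxTLR4-/-. Their lengths ran from 17 to 39 kb, from 12.2 to 51 kb and from 13 to 33.2 kb. A peak picked because it covers a given base tends to be long. Peaks over the starts of other marked genes were not taken as a comparison.

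In WT BMDM the order by density was Gata2, Pax5, Ebf1, Eomes, Gata3, Lef1, Bcl11b, Tbx21 and Tcf7. The exact 95% interval of the ratio between neighbours lay above 1 for 4 of the 8 neighbouring pairs, which were Gata2 over Pax5, Pax5 over Ebf1, Gata3 over Lef1 and Tbx21 over Tcf7. In mdx it did so for 3 of the 8, and in mdxTLR4-/- for 1, which was Ebf1 over Eomes. Most neighbours in the order were thus not separated at these read counts. Gata2 was first in WT and mdx and second in mdxTLR4-/-, where Pax5 had 72.1 reads per kb (68.7 to 75.5) and Gata2 70.5 (67.3 to 73.8). The density of Pax5 there belonged to the shortest of its 3 start peaks.

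**Figure D3:**
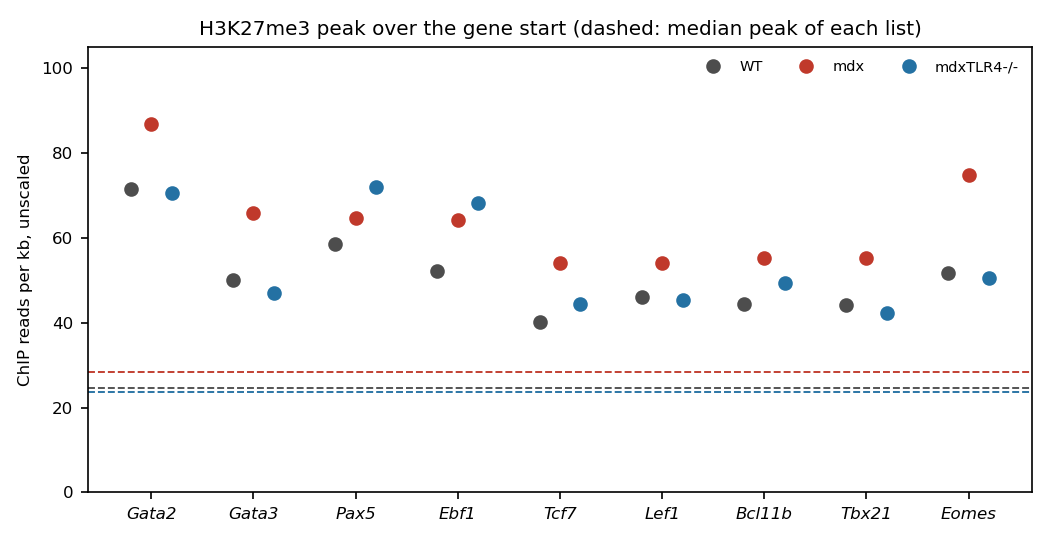
Unscaled H3K27me3 density (ChIP reads per kb, vertical axis) of the peak over the start of each of the 9 genes in the 3 genotypes, with the median peak of each list as dashed lines. The 27 points lie between 40.1 and 86.7 reads per kb, above the line of their list, and Gata2 is highest in WT and mdx.

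The genotypes were then compared by the density of all peaks in each window. From WT to mdx the unscaled density was higher at 9 of 9 genes, with the exact interval above 1 for each and a median ratio of 1.25 (1.16 to 1.30). Here and below, the bracket after a median ratio runs from the second lowest to the second highest of the 9 genes. It describes the spread among the genes and is no error of a genotype. It was also higher at 90.6% of the 7996 protein-coding genes with peaks in both lists, and the 17103 regions shared by the 3 lists had a median ratio of 1.22. Relative to those regions the median of the 9 genes was 1.02, with 5 of 9 genes above 1, the interval above 1 for 2 and below 1 for 1. Scaled to the reads in peaks, 5 of 9 were above 1. The share of all protein-coding genes above 1 was not counted under these scalings. Ranked by ratio among those with peaks in both lists, the 9 had a median percentile of 62.0. The rise of the 9 genes was thus of the size seen across the whole list. Gata3 had the highest ratio, 1.30 (1.23 to 1.38), and Ebf1 the lowest, 1.16 (1.09 to 1.24).

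From WT to mdxTLR4-/- the median ratio of the 9 genes was 1.03 (0.973 to 1.11). The density was higher at 5 of 9 genes, against 41.2% of protein-coding genes, with the interval above 1 for Tcf7 (1.12, 1.04 to 1.20) and Bcl11b (1.11, 1.03 to 1.19) and below 1 for none. From mdx to mdxTLR4-/- the density was lower at 9 of 9 genes, with a median ratio of 0.837 (0.801 to 0.890). A higher density was seen at 8.53% of protein-coding genes in that comparison. The shared regions had a median ratio of 0.959 from WT to mdxTLR4-/- and of 0.790 from mdx to mdxTLR4-/-. Relative to them the 9 genes had median ratios of 1.08 and 1.06, with 8 of 9 genes above 1 in both comparisons. Scaled to the reads in peaks, 9 of 9 were above 1 in both. Scaling thus turned the direction of the comparison with mdx, so that no direction can be given for mdxTLR4-/- against mdx without a known depth. The share of all protein-coding genes above 1 under either scaling was not counted, so these counts alone do not set the 9 genes apart. Ranked by ratio among protein-coding genes with peaks in both lists, the 9 had a median percentile of 69.2 from WT and 60.3 from mdx. The 3 comparisons share lists and are not independent.

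The peak over the start alone gave a wider spread. From WT to mdx its ratio ran from 1.10 at Pax5 to 1.45 at Eomes, and from WT to mdxTLR4-/- from 0.938 at Gata3 to 1.31 at Ebf1. From mdx to mdxTLR4-/- it ran from 0.674 at Eomes to 1.12 at Pax5 (interval 1.05 to 1.18), and 2 of 9 genes were above 1, where the density over the whole window was lower at all 9. At Eomes the mdx peak was 20.2 kb against 33.4 kb in WT, and at Ebf1 the mdxTLR4-/- peak was 13 kb against 20.6 kb in WT. At Tbx21, whose start peak was 36 kb in WT, 12.2 kb in mdx and 15.6 kb in mdxTLR4-/-, the ratios to WT were 1.25 and 0.957. The part of peak length in these ratios was not tested.

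**Figure D4:**
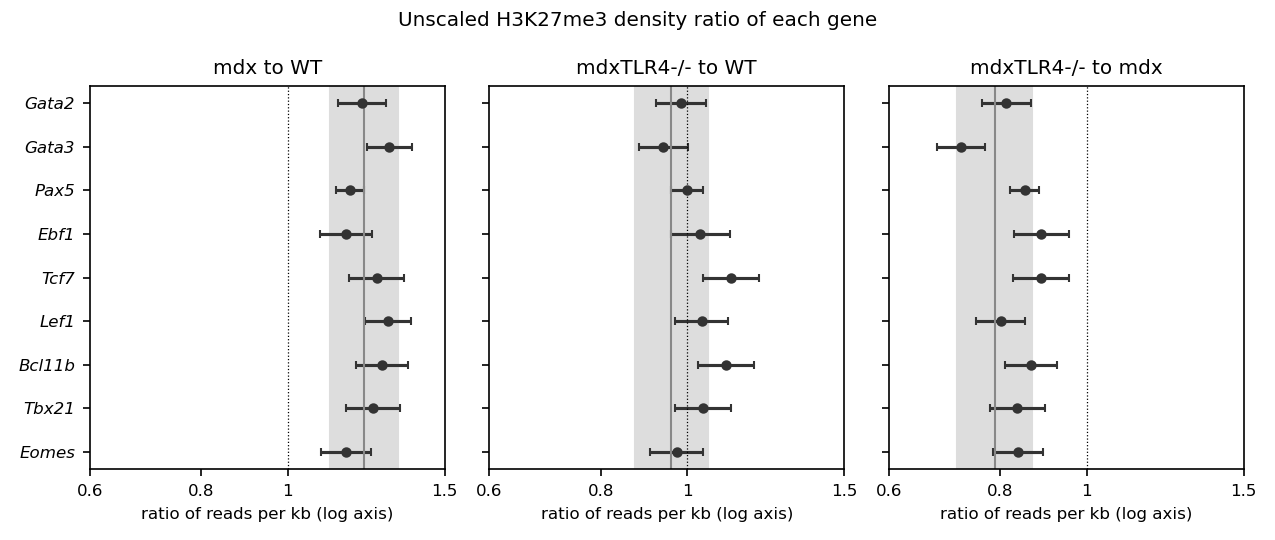
Ratio of unscaled H3K27me3 density for each of the 9 genes and each pair of genotypes on a log axis, with exact 95% intervals of the read counts, the median of the 17103 shared regions as a grey line and their quartiles as a grey band. In the mdx to WT panel the 9 points lie to the right of 1 and within the grey band, and in the mdxTLR4-/- to mdx panel they lie to the left of 1, mostly to the right of the grey line.

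The nearest H3K27ac peak lay outside the windows. It was closest for Tbx21, at 26.7 kb from the gene start in WT, 26.1 kb in mdx and 34.1 kb in mdxTLR4-/-, over Tbkbp1, the adjacent gene for a kinase-binding protein. At Pax5 the nearest peak lay over Zcchc7 (44.3, 45.5 and 46.1 kb), at Tcf7 over Skp1a (about 50 kb in each list) and at Ebf1 over Rnf145 (69.5, 69.9 and 70.3 kb), the same neighbouring gene in each genotype. For Gata2 the distance was 85.7 kb in WT, 108 kb in mdx and 145 kb in mdxTLR4-/-. Bcl11b, at 173 to 174 kb, and Eomes, at 193 to 196 kb, were farther from acetylated chromatin. For Lef1 the distance was 236 kb in WT, 161 kb in mdx and 209 kb in mdxTLR4-/-. The distance differed most at Gata3, where a peak of 12 reads over Taf3 lay 35.8 kb upstream in WT and the nearest peak was at 158 kb in mdx and 159 kb in mdxTLR4-/-. The nearest peaks of the 9 genes held 5 to 27 reads each, and those of Gata3 held 12 in the WT list, 7 in the mdx list and 5 in the mdxTLR4-/- list.

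The starts differed in CpG content. In the 2 kb centred on the gene start, Bcl11b held 158 CpG, Tcf7 142, Tbx21 128, Eomes 126, Lef1 123 and Gata2 119, whereas Ebf1 held 68, Gata3 63 and Pax5 56. The median of the 9 was 123, that of all protein-coding genes was 61, and that of the 4417 genes with the start under H3K27me3 in all 3 lists was 67. The group therefore fell into 6 CpG-rich starts and 3 near the genome-wide level. The annotated start is not a RefSeq start for these 3 genes, nor for Lef1, Bcl11b and Eomes. The 250 bases upstream of the RefSeq starts held 19 CpG in Gata3, 19 in Pax5, and 9 and 14 at the starts of Ebf1.

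Other genes lay under the peaks over the starts. The peak of Gata3 covered the protein-coding genes 4930412O13Rik and 9230102O04Rik in full in each genotype. Antisense or long noncoding genes lay whole under the start peaks of Gata2 (Gm38708), Tcf7 (A630014C17Rik), Lef1 (Gm43352) and Eomes (Gm33460) in the 3 lists. H3K27me3 over these loci cannot be assigned to one of the overlapping genes.

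By the percent of the window under each mark in each genotype, 6 values in all, each gene was set against the protein-coding genes of like window length. The nearest were Gucy2g for Gata3 (mean difference 0.540 percentage points), Pitpnm2 for Pax5 (0.989), Tox for Ebf1 (0.449), Adrb3 for Tcf7 (1.24), Gxylt2 for Lef1 (0.789), Rasgrf1 for Bcl11b (0.972), Aldh3a1 for Tbx21 (0.229) and Tspan17 for Eomes (0.0372). For Gata2, 175 genes tied at the same values, fully covered by H3K27me3 and without H3K27ac. The likeness is one of coverage only.

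Of 30 family members of the 9 factors (other GATA, PAX, EBF, TCF, BCL11 and T-box genes), 24 had the start under H3K27me3 in each list, and 2 in WT, 3 in mdx and 2 in mdxTLR4-/- had an H3K27ac peak in the window. The start was thus marked in all 3 lists for 80% of them, against 20.1% of protein-coding genes. An H3K27ac peak was present in 39.9% of protein-coding windows in WT, 34.5% in mdx and 36.5% in mdxTLR4-/-. Gata4 and Gata5, which act outside blood, were covered over 100% of the window in WT. Gata1, the erythroid factor, and Tbx22 had no peak of either mark. H3K27me3 over the start was thus common in these families and not limited to the members that act in blood.

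Among 24 further blood transcription factors, the start lay under H3K27me3 for 10 in WT, 9 in mdx and 9 in mdxTLR4-/-, while 14, 8 and 13 had H3K27ac in the window. Over all 3 lists, 33.3% of them had the start under H3K27me3 and 33.3% had H3K27ac, against 20.1% and 26.7% of protein-coding genes. Gfi1b, a factor of red cells and megakaryocytes, resembled Gata2 with 100% coverage by H3K27me3 and no H3K27ac. Id3, an inhibitor of E proteins, carried both marks, with H3K27me3 over 90.3%, 51.6% and 44.3% of the window. Bcl6 and Hhex carried H3K27ac and no H3K27me3.

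Genes of lymphocytes and mast cells were read against the 20.1% of protein-coding genes with the start under H3K27me3 in all 3 lists. Of 11 B cell genes, 3 had it (27.3%), and 3 had H3K27ac in the window in all 3 lists (27.3%, against 26.7% of protein-coding genes). Those with H3K27me3 over the start included Blk, a B cell kinase, with 93.6% of the window covered in WT, while Cd79a and Igll1, parts of the B cell receptor complexes, had no H3K27me3 peak. Of 13 T cell genes, 4 did (30.8%), with Cd3e, a chain of the T cell receptor complex, at 100% in each list and Cd28 and Themis without H3K27me3. Of 9 Th1 and NK cell genes, 3 did (33.3%), with Il2rb (100% in each list) and the perforin gene Prf1 (90.0% in WT) highest, and Ifng and Cxcr3 were without H3K27me3. Of 7 Th2 genes, 4 did (57.1%), with Il13 at 91.5% and Il5 at 90.3% in WT and Il1rl1 at 7.68%, and none of the 7 had H3K27ac. Of 11 mast cell and megakaryocyte genes, 5 did (45.5%). The tryptase genes Tpsb2 and Tpsab1 lay under 1 shared domain at 100%, and Cpa3 and Fcer1a had no peak of either mark. These lists are described by their counts, and a difference between them and the 9 factors was not tested.

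**Figure D5:**
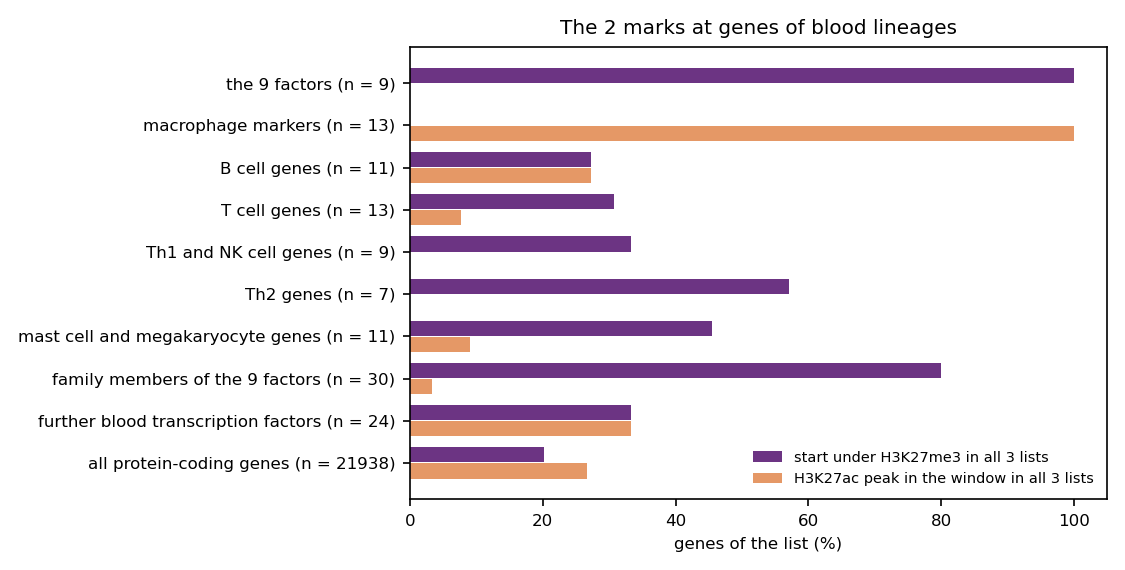
Share of the genes of each list (percent, horizontal axis) with the start under H3K27me3 in all 3 lists (purple) and with an H3K27ac peak in the window in all 3 (orange). The 9 factors are at 100% and 0%, the macrophage markers at 0% and 100%, and all 21938 protein-coding genes at 20.1% and 26.7%.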

How the data were processed

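The deposited data were 6 peak lists of ChIP-seq on BMDM. As the authors' methods state, reads were mapped to mm10 with Bowtie2, replicates were merged and peaks were called with SICER2 (window 200 bp, gap 600 bp, FDR below 0.01). The submitters' processing notes name Bowtie2 2.3.4, SICER 2.0, cutadapt 1.15 and CASAVA 1.8. Removal of duplicate reads is not given in the sources used here. Each deposited peak has a read count from the ChIP libraries, left by the authors without scaling for depth or length and without subtraction of input. Library depth is unknown. Reads in H3K27me3 peaks summed to 8331331 in WT, 10199918 in mdx and 7358418 in mdxTLR4-/-, and in H3K27ac peaks to 274020, 191629 and 168487, sums that move with how much was called.

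Windows and starts came from GENCODE vM21, promoter sequences from RefSeq (GRCm38.p6). Coverage is the percent of a window under peaks. Density is the reads of the peaks touching a window over their full length. Ratios of single genes or peaks have exact 95% Clopper-Pearson intervals of read counts, and densities exact Poisson intervals. Both cover counting error only. Shared regions are merged peaks found in all 3 H3K27me3 lists. Python 3.11.15 with numpy 2.4.6, pandas 2.3.3, scipy 1.17.1 and matplotlib 3.10.9 was used, and the procedure was tested on simulated peaks.

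The 9 genes and all lists (macrophage markers, B cell, T cell, Th1 and NK cell, Th2, and mast cell and megakaryocyte genes, family members, and further blood transcription factors) were chosen with earlier results of these data known. Named genes were the 9, the 2 most and the 2 least covered of each other list in WT BMDM (ties in alphabetical order), the nearest gene by coverage and the protein-coding genes under the start peaks. Some genes that this rule picks are not reported here. Irf8, the noncoding genes under the start peaks and the genes under the nearest H3K27ac peaks were named after their values were seen. Alternatives were other coverage minimums, read minimums and peak filters, other scalings of density and the single peak over the start. Input libraries were not analysed here.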

Additional observations from a re-analysis of the deposited data

How the results depend on the processing

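The peak lists merged their replicates, and the H3K27ac list of mdxTLR4-/- came from 1 library, so leaving out a replicate was not possible. No paired analysis was possible because the lists carry no replicate and the results come from no test. Of the alternatives, 59 values stayed within the limits set for a change, 8 moved and 5 turned direction. With a minimum of 80% of the window, WT BMDM had 3 covered genes, mdx BMDM 4 and mdxTLR4-/- BMDM 3. The median density ratio from WT to mdx fell to 1.02 when scaled to 1000000 reads in peaks, to 1.07 relative to the 1st percentile of density and to 1.02 relative to the shared regions. From WT to mdxTLR4-/- it was 1.17 and 1.13 under the first 2 scalings, and 0.987 for the peak with the most overlap and likewise 0.987 for the peak over the start, the latter chosen after seeing the data. From mdx to mdxTLR4-/- it turned to 1.16, 1.07 and 1.06 under the 3 scalings. Which scaling is right cannot be settled without the depth of the libraries. The counts of genes with the start under H3K27me3, and with an H3K27ac peak, did not change by more than the limit under any alternative run.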
